A study of Rattus norvegicus with 180 samples.

Results

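The step from gastric to intestinal mucosa was examined in 3 male Sprague-Dawley rats (animals 4, 5 and 6), from which the glandular stomach and the duodenum were both taken. The 6 arrays, 3 of each organ, were chosen by their organ labels and paired by animal number, out of 180 arrays in the atlas. All 6 samples came from untreated animals aged 10 weeks whose vessels had been flushed with saline before the organs were removed, so that the perfusion is shared by both organs. The question was which miRNAs differ in level between the last part of the stomach and the first part of the intestine of the same animal. According to the study's organ list, all intestinal samples were epithelium scraped from the mucosa. No such mark is given there for the glandular stomach, which its sample table puts with the muscle organs. Organ and way of sampling therefore cannot be told apart. As these are bulk samples, fewer cells of a type and less of a miRNA per cell cannot be told apart either.

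A miRNA is a short RNA that binds messenger RNAs mainly through its seed, bases 2 to 8, and lowers their output. The glandular stomach is lined by a simple columnar epithelium with acid- and pepsinogen-secreting glands, and the duodenum by absorptive villi and rapidly dividing crypts. miR-192, miR-215 and miR-194 are known as miRNAs of the intestinal epithelium, where HNF transcription factors switch them on, and miR-192 and miR-194 are also abundant in liver and kidney. The miR-200 family is expressed in nearly all epithelia, where it represses the ZEB transcription factors.

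The mature sequences below are those of RefSeq for build GRCr8, in which 40 of 45 names looked up were found, and the arm was assigned by standard naming. Capitals mark the seed. The first set is shown because its members are the markers of the intestinal epithelium, and miR-192 and miR-215 share their seed.
miR-192: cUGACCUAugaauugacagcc
miR-215: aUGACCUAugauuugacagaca
miR-194: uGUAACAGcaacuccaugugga
The second set is the miR-17-92 cluster, whose members were all higher in duodenum and fall into the seed groups of miR-17 and miR-20a, of miR-18a, of miR-19a and miR-19b, and of miR-92a.
miR-17-5p: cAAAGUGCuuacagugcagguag
miR-20a: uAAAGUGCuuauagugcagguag
miR-18a: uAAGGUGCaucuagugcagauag
miR-19a: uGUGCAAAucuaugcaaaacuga
miR-19b: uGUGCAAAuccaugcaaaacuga
miR-92a: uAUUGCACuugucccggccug
The third set holds pairs with the same seed of which 1 member was called higher in glandular stomach with the main scaling and the other was not.
miR-130a: cAGUGCAAuguuaaaagggcau
miR-130b: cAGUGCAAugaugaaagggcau
let-7a: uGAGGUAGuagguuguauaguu
let-7e: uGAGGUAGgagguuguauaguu
miR-30a: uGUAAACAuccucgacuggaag
miR-30e: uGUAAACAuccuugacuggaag
The last set gives miRNAs that were higher in glandular stomach, of which miR-125a-5p and miR-125b-5p share a seed.
miR-99b: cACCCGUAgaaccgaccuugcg
miR-125a-5p: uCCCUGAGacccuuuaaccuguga
miR-125b-5p: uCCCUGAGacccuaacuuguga
miR-221: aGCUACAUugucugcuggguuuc
Of the pairs above, miR-192 and miR-215 differ at 3 of the 21 positions compared and miR-130a and miR-130b at 2 of 22. miR-19a and miR-19b differ at 1 of 23, and let-7a and let-7e, like miR-30a and miR-30e, at 1 of 22. Probes for such close relatives can share signal, so that a contrast between them is uncertain to that extent.

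Each array carried 14340 spots for 717 miRNAs, and none of these spots was saturated (0 on each of the 6 arrays). The values given are scaled signals, that is the array's background-subtracted intensity multiplied so that the 75th percentile of 37 miRNAs found on all 180 arrays was the same, 2118, and set to a floor of 10.8 where lower. A miRNA was called detected on an array when more than 50% of its spots stood well above background. At least 156 miRNAs were detected on each array of glandular stomach and at most 154 on those of duodenum, with 134 on the lowest. The arrays of duodenum were dimmer before scaling, with 75th percentiles of 540 to 697 against 1131 to 1700. After scaling the dimmest detected miRNA therefore lay at 24.8 to 31.9 in duodenum and at 12.4 to 14.8 in glandular stomach. Each animal's pair of arrays lay on 1 slide and was scanned on the same day, so the contrast is within slides, while animal and slide cannot be told apart.

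With animal as a block, 155 miRNAs were tested, those seen on each of the 3 arrays of 1 organ or of both, and 121 of them were detected on all 6 arrays. At an adjusted p under 0.05, 75 of the 155 (48.4%) were called, 57 (36.8%) higher in duodenum and 18 (11.6%) higher in glandular stomach. This split depends on how the arrays are brought to 1 scale. With the main scaling the median difference of the 121 miRNAs found on all 6 arrays was -0.35 on the log2 scale (glandular stomach minus duodenum, here and throughout), and with 4 other scalings it lay between 0.16 and 0.28. Under those 4, 32 to 38 miRNAs were higher in duodenum and 45 to 60 in glandular stomach. With the deposited normalized values the median was 0.02 and the counts were 41 and 33. The results below lead with the 47 miRNAs (30.3%) that were called in the same direction under all 6 of these scalings. Of these, 29 were higher in duodenum (18.7% of those tested) and 18 higher in glandular stomach (11.6%). The arrays of the organs did not overlap for 87 of the 155 tested (56.1%), of which 13 were not called with the main scaling.

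**Figure D1:**
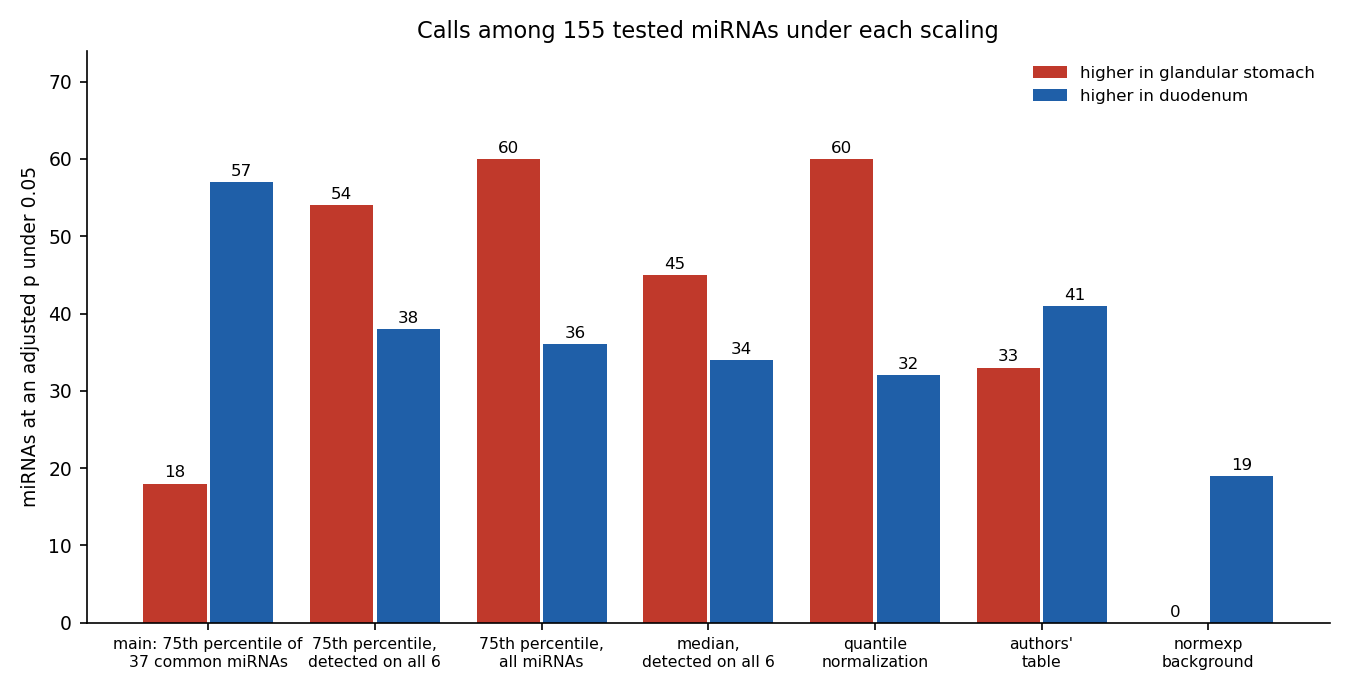
Bars give the number of miRNAs, of 155 tested, at an adjusted p under 0.05 that were higher in glandular stomach (red) or in duodenum (blue) under 6 scalings and after another background correction (normexp). The count for glandular stomach goes from 18 with the main scaling to 60 with quantile normalization and to 0 with normexp, while that for duodenum lies between 19 and 57.

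**Figure D2:**
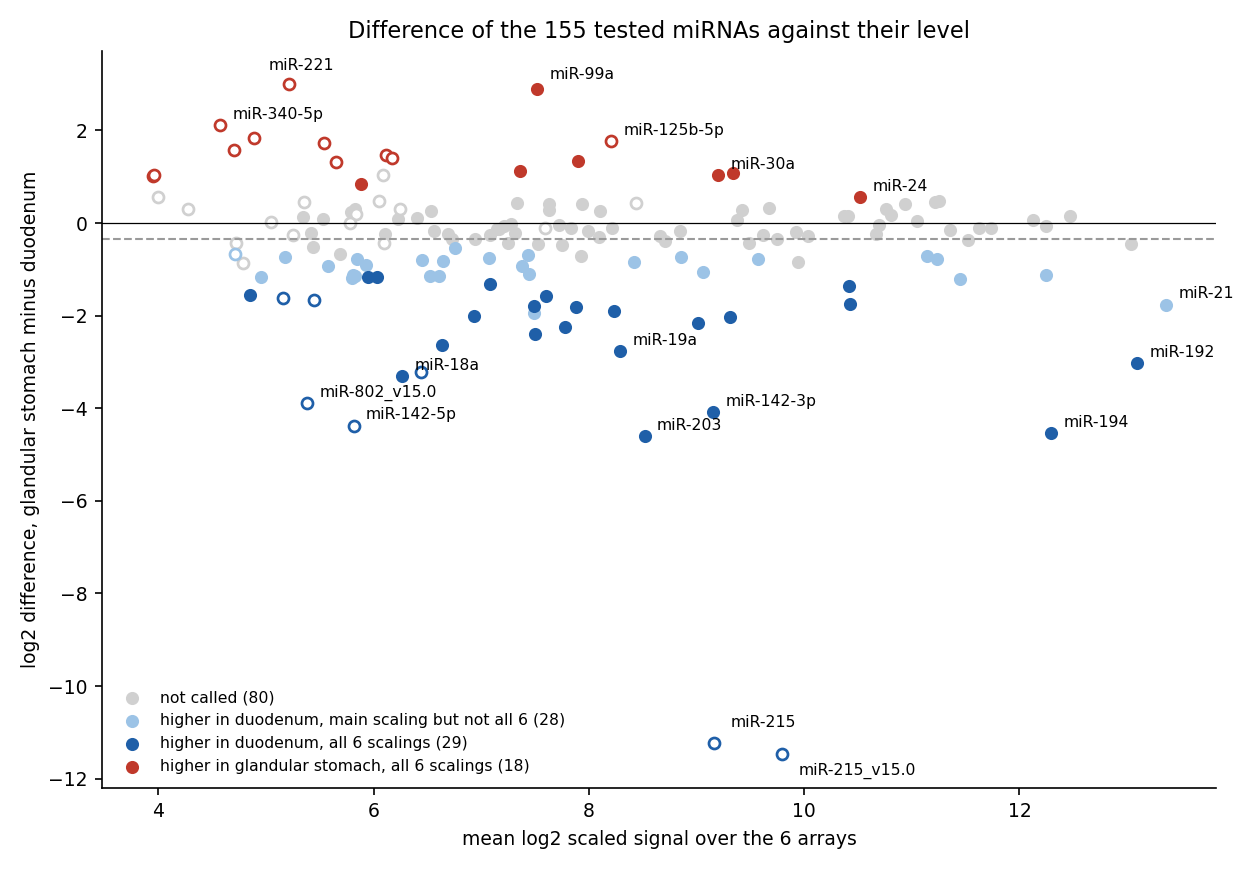
Each point is 1 of the 155 tested miRNAs, with its mean log2 scaled signal over the 6 arrays on the x axis and its log2 difference on the y axis. Open points were not detected on all 6 arrays, the dashed line is the median difference of -0.35 over the 121 that were, and both probe sets for miR-215 lie far below all others, at -11.23 and -11.47.

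Both probe sets for miR-215 had the largest differences of all miRNAs tested. Of the intestinal epithelium list (miR-192 and its star arm, miR-194 and both probe sets for miR-215) all 5 tested members were higher in duodenum under all 6 scalings (18.7% of all miRNAs tested). Of these miR-192 and miR-194 were detected on all 6 arrays, and the other 3 entered the test through the duodenal arrays, where they are high. miR-215 gave scaled signals of 44298, 27844 and 18079 in the duodenum of animals 4, 5 and 6 and of 13.6, 10.8 and 10.8 in their glandular stomachs, where it was detected on 1 of 3 arrays and stood at the floor on the others. The duodenum was thus bright in every animal and the glandular stomach at the limit of the array. The fitted difference of -11.23 ± 0.23 (SE, n = 3 pairs, adjusted p = 2.9e-06) depends on the floor and was -9.34 with a floor 4 times as high. A further probe set, which the array design names after an older miRBase release, gave 73370, 45476 and 32077 against 28.9, 14.8 and 10.8.

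miR-192, the relative of miR-215 with the same seed, was clearly present in glandular stomach. Its scaled signals were 2256, 3159 and 4047 there and 34114, 24388 and 18690 in duodenum. The groups did not overlap, and the level was 8.14-fold higher in duodenum (log2 difference -3.02 ± 0.34, adjusted p = 0.0014). It was detected on all 3 stomach arrays, miR-215 on 1 of them. The star arm of miR-192 moved with it, at 20.3, 27.4 and 41.5 against 329, 243 and 231 (log2 difference -3.22 ± 0.32, adjusted p = 0.00092).

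miR-194 is encoded beside both relatives, once with miR-192 (chr1:212994024-212994318, plus strand) and once with miR-215 inside the gene Iars2 (chr13:99382716-99383086, plus strand). It gave 756, 1116 and 1337 in glandular stomach and 34609, 23113 and 17589 in duodenum. It was 23.2-fold higher in duodenum (log2 difference -4.54 ± 0.36, adjusted p = 0.00052), a difference that lay between those of its neighbours. In each of miR-192, miR-194 and miR-215 the duodenum of animal 4 was the brightest of the 3. The difference of miR-192 went from -3.02 with the main scaling to -1.58 with quantile normalization, and that of miR-194 from -4.54 to -3.03, and both stayed called.

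**Figure D3:**
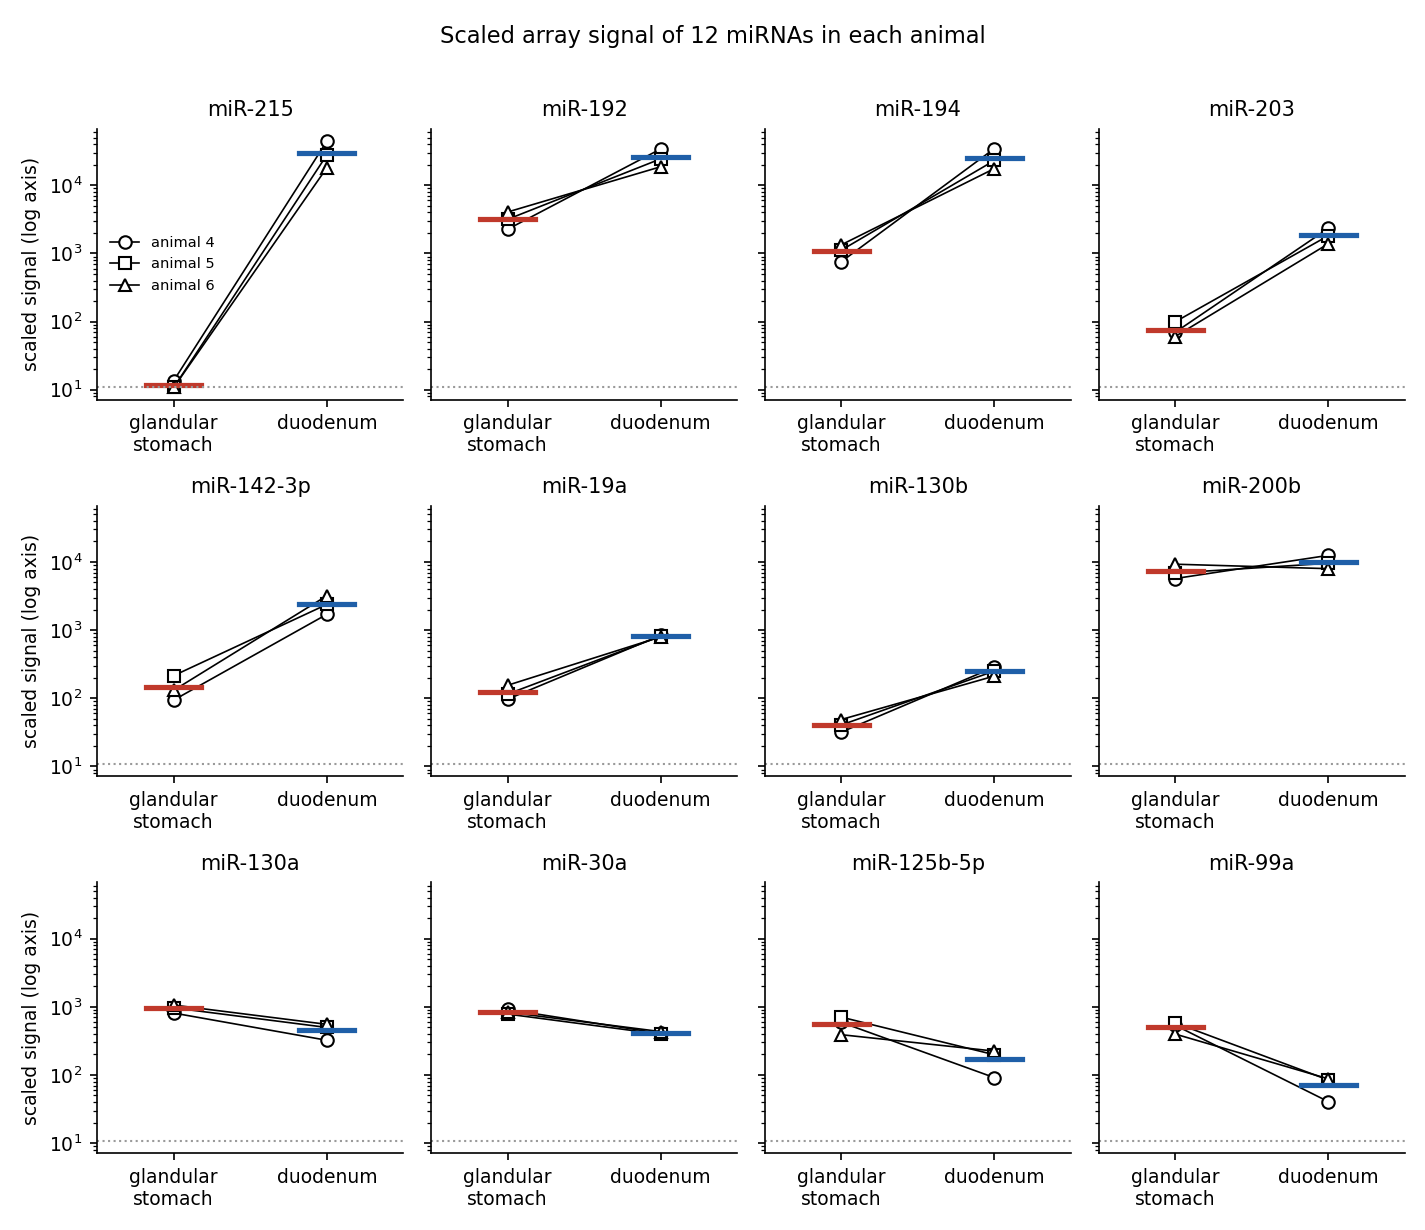
Scaled signal (log axis) of 12 miRNAs in glandular stomach and duodenum, with 1 line per animal, coloured bars for the means and a dotted line at the floor of 10.8. Lines rise steeply for miR-215, miR-192, miR-194, miR-203 and miR-142-3p, cross for miR-200b and fall for miR-130a, miR-30a, miR-125b-5p and miR-99a.

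Outside that list, miR-203 had the largest difference among miRNAs detected on all 6 arrays. miR-203 is known for driving differentiation in stratified epithelium. It gave 69.4, 99.0 and 60.3 in glandular stomach against 2325, 1816 and 1382 in duodenum, a 24.1-fold difference (log2 -4.59 ± 0.22, adjusted p = 0.00011). The anterior stomach of the same animals, whose squamous lining continues that of the esophagus, read 2138 on average, so that both neighbouring organs read higher than the glandular stomach. miR-205, another miRNA of squamous and basal epithelium, did not follow miR-203. It gave 56.1, 64.1 and 48.5 in glandular stomach and 13.4, 17.4 and 16.5 in duodenum, where it was not well above background, which makes it at least 1.95-fold higher in glandular stomach. In the anterior stomach it had a mean of 338.

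miR-802, a miRNA known from liver and intestine, was measured by 2 probe sets. The one named after an older miRBase release gave 176, 145 and 162 in duodenum and the floor value in all 3 glandular stomachs, where it was not well above background. It was at least 11.7-fold higher in duodenum. The limma fit gave an adjusted p of 7.3e-05, but this probe set entered the test through the duodenal arrays. Its floor values in glandular stomach have no spread. The other probe set reached only 28.4, 19.4 and 25.9 in duodenum, was not well above background on any of the 6 arrays and was not tested.

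The miR-17-92 cluster is driven by MYC and known from dividing cells. Of 10 tested members of this cluster and its relatives, 9 were higher in duodenum and 7 of these under all 6 scalings, with a median of -1.85. Over all miRNAs tested these shares were 36.8% and 18.7% and the median was -0.26. The 6 hairpins lie within 785 bases of 1 transcript (chr15:98587848-98588632, plus strand). miR-19a gave 96.9, 115 and 155 in glandular stomach and 836, 812 and 796 in duodenum (log2 difference -2.77 ± 0.20, adjusted p = 0.00043). miR-18a gave 21.2, 23.7 and 29.3 against 249, 261 and 217 (-3.30 ± 0.20, adjusted p = 0.00026). No array of one organ reached the range of the other in either case. The other members were 3.35-fold to 4.49-fold higher in duodenum: miR-92a at -2.17 ± 0.18, miR-20a at -2.03 ± 0.18, miR-17-5p at -1.79 ± 0.16 and miR-19b at -1.75 ± 0.18. miR-92a, miR-19b and miR-17-5p have another hairpin on chromosome X beside miR-20b-5p, which was also higher in duodenum (-1.90 ± 0.17).

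The related miR-106b-25 cluster lies inside Mcm7, a gene of the DNA replication helicase (chr12:22156641-22157134, minus strand), and its members differed less. miR-93 and miR-106b, which have the seed of miR-17, were at -1.09 ± 0.16 and -0.73 ± 0.16 and were called under 4 and 1 of the 6 scalings. miR-25, with the seed of miR-92a, was at -0.11 and was not called. Among other miRNAs of the cell cycle, miR-15b was higher in duodenum under all 6 scalings, at 728, 887 and 972 against 2577, 2238 and 1808 (-1.35 ± 0.22, adjusted p = 0.0053). miR-16, which is cut from the same transcript and also from another one, was at -0.71 ± 0.16, was called with the main scaling alone, and lost that call without animal 4 or 5 (adjusted p = 0.059 and 0.18).

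Of the 7 members of the leukocyte list, 6 were tested and 4 were higher in duodenum under all 6 scalings (18.7% of all miRNAs tested), while 4 of the 6 were detected on all 6 arrays. miR-142, found in nearly all blood cells of the white lineages, gave 94.2, 215 and 131 in glandular stomach and 1706, 2385 and 3193 in duodenum for its 3p arm (17.0-fold, log2 -4.09 ± 0.26, adjusted p = 0.00027). Its 5p arm was detected on 1 of 3 stomach arrays and gave 10.8, 15.8 and 11.0 against 173, 243 and 398, so that the size of its difference depends on the floor. miR-223 of myeloid cells was at 78.7, 148 and 88.5 against 362, 552 and 552 (-2.25 ± 0.20, adjusted p = 0.00073). miR-146a, which restrains NF-kB signalling, was at 105, 166 and 112 against 312, 494 and 562 (-1.82 ± 0.22, adjusted p = 0.0019). In all of these the duodenum of animal 4 was the lowest of the 3 duodenal samples, the opposite of the intestinal epithelium list. Summed over the leukocyte list, the signal was 369 to 661 in glandular stomach and 2690 to 4880 in duodenum. The part of white blood cells in the other differences was not tested.

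Further miRNAs higher in duodenum under all 6 scalings were miR-130b (-2.64 ± 0.24), miR-1949 (-2.39 ± 0.16), miR-425 (-2.01 ± 0.21), miR-342-3p, miR-204, miR-219-5p, the star arm of miR-652, miR-181a, miR-2985 and miR-3085, the last 7 between -1.67 and -1.16. miR-1949 varied between animals, at 623, 226 and 507 in duodenum and 108, 46.9 and 97.9 in glandular stomach. Animal 5 was the lowest in both organs, and the difference within animals had a small error. miR-21, a widely expressed miRNA, gave 4529, 5576 and 7348 against 21038, 19080 and 18081 (-1.76 ± 0.22, adjusted p = 0.0023) and was called under all scalings but quantile normalization, where the difference was 0.28. miR-10a-5p, encoded in a HOX cluster, was at -1.94 ± 0.39 and was called under 3 of the 6 scalings.

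The 18 miRNAs higher in glandular stomach had a median difference of 1.38, and the 57 called higher in duodenum with the main scaling one of -1.31. Of the 18, 7 were detected on all 6 arrays and 9 were not well above background on any duodenal array. After normexp background correction the median difference of the 121 miRNAs found on all 6 arrays moved from -0.35 to -1.07, toward duodenum. After normexp 13 of the 18 changed direction and none passed limma's test (0, with 57 of the 155 at an unadjusted p under 0.05). miR-221, with the largest difference of the 18, went from 3.00 to -0.69, a larger move than that of the median. The cause was not tested. Of the 29 miRNAs higher in duodenum, which a move toward duodenum could not turn, 17 kept their call. Of the 18 higher in glandular stomach, the 5 that kept their direction were miR-99a, miR-125b-5p, miR-130a, miR-30a and miR-24.

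miR-99a had the largest of these differences among the 7 detected on all 6 arrays. It gave 537, 583 and 399 in glandular stomach and 40.7, 84.6 and 87.9 in duodenum, without overlap, and was 7.45-fold higher in glandular stomach (log2 difference 2.90 ± 0.32, adjusted p = 0.0013). miR-125b-5p, often encoded in 1 cluster with miR-99 or miR-100 and let-7, gave 592, 706 and 390 against 91.4, 198 and 224 (1.78 ± 0.37, adjusted p = 0.012). It was detected on 2 of 3 duodenal arrays, and without animal 4 the adjusted p was 0.06. Of the 10 members of the miR-99, miR-100 and miR-125 list 4 were tested and called higher in glandular stomach, against 11.6% of all miRNAs tested. Of these only miR-99a was detected on all 6 arrays, and the other 3 entered the test through the stomach arrays, where they are high.

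The cluster of miR-99b, let-7e and miR-125a spans 696 bases inside the gene Spaca6 (chr1:67350064-67350759, plus strand). All 3 members were called higher in glandular stomach, against 11.6% of all miRNAs tested. miR-99b and miR-125a-5p entered the test through the stomach arrays. miR-99b, at 40.1, 59.1 and 38.4 against 10.8, 17.6 and 18.0, was not well above background in duodenum and was at least 1.57-fold higher in glandular stomach. let-7e gave 356, 492 and 316 against 76.2, 214 and 206 (1.35 ± 0.33, adjusted p = 0.02). miR-125a-5p gave 102, 153 and 98.9 against 20.9, 57.2 and 61.1 (1.47 ± 0.32, adjusted p = 0.014), and was detected on 1 of 3 duodenal arrays. let-7e and miR-125a-5p each had an adjusted p of 0.059 without animal 4, whose duodenum was the lowest of the 3 in all of these miRNAs. By contrast let-7c, encoded beside miR-99a (chr11:29687392-29688205, plus strand), was at -0.10 and was not called. It is also encoded elsewhere with let-7b.

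Within the let-7 family, whose members share a seed and mark differentiated cells, let-7e was the 1 of 8 that was called with the main scaling, a share close to the 11.6% of all miRNAs tested. let-7a gave 4358, 5158 and 4283 against 4396, 4761 and 3960, and let-7f gave 4389, 4964 and 5007 against 4906, 5177 and 4795, so that the organs overlapped. The 95% interval of the let-7a difference was -0.32 to 0.46 with the main scaling, but the difference reached 1.48 with quantile normalization. Of the 8 tested members of the miR-30 family, both arms of miR-30a were called with the main scaling. miR-30a gave 916, 783 and 834 against 407, 396 and 433 (1.03 ± 0.16, adjusted p = 0.0043), and its star arm was at 0.84 ± 0.16, a call that was lost without animal 5 (adjusted p = 0.11). miR-30e, 1 base away, was at 808, 774 and 707 against 1167, 927 and 836 and was not called (adjusted p = 0.14), although the arrays of the organs did not overlap.

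The miR-130 seed was split between the organs. miR-130a gave 810, 965 and 1061 in glandular stomach and 323, 498 and 553 in duodenum (1.07 ± 0.17, adjusted p = 0.0048). miR-130b gave 31.9, 40.6 and 48.8 against 286, 251 and 212 and was 6.22-fold higher in duodenum (-2.64 ± 0.24, adjusted p = 0.00073). The groups did not overlap for either miRNA, as for 56.1% of all miRNAs tested, and both were called under all 6 scalings. After normexp the differences were 0.31 and -1.88 and neither was called (adjusted p = 0.52 and 0.066).

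**Figure D4:**
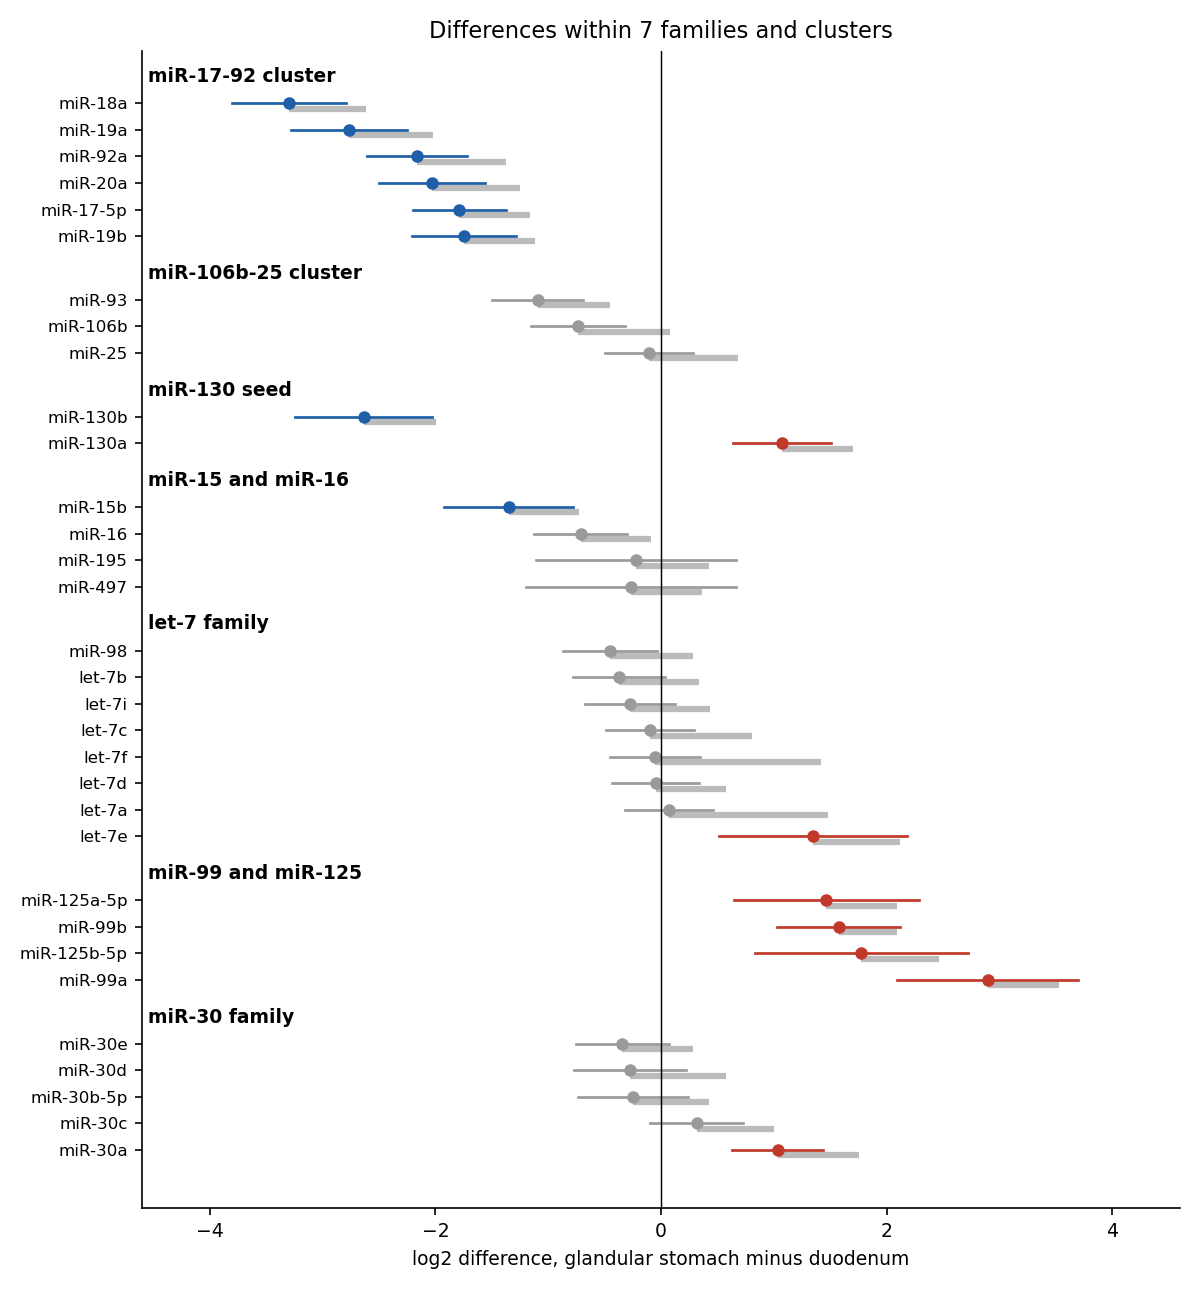
Points give the log2 difference of each miRNA (glandular stomach minus duodenum) with its 95% interval, and grey bars below them the range over the 6 scalings. Red and blue mark calls held under all 6 scalings, 11.6% and 18.7% of all miRNAs tested. They include all 6 members of the miR-17-92 cluster in blue and both colours for the miR-130 seed. All 4 tested of miR-99 and miR-125 are red, of which 1 was detected on all 6 arrays.

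Most of the remaining miRNAs higher in glandular stomach were not well above background in duodenum. miR-221, which represses KIT and the cell cycle inhibitor p27, gave 99.9, 101 and 115 in glandular stomach and 10.8, 12.2 and 17.1 in duodenum, where it was not well above background. It was at least 3.66-fold higher in glandular stomach. The limma fit gave an adjusted p of 0.00026, but miR-221 entered the test through the stomach arrays. The floor also limits its spread in duodenum. On the same terms miR-340-5p was at least 1.72-fold higher. miR-326 and miR-152, which targets a DNA methyltransferase, were not well above background in duodenum either. Their signals there still lay above the dimmest detected ones. For them the fitted folds are given, 2.49 for miR-326 and 2.66 for miR-152, which are not bounds. Without animal 4 the log2 difference of miR-152 was 0.91 and its call was lost (adjusted p = 0.096). miR-185 was detected on all 6 arrays, at 261, 250 and 219 against 138, 112 and 89.1 (1.12 ± 0.17). miR-24 had the smallest difference of those called higher in glandular stomach, 0.56 ± 0.17 (adjusted p = 0.038). It lost its call when any 1 animal was left out, with adjusted p-values of 0.11, 0.37 and 0.051 without animals 4, 5 and 6. miR-451 of red blood cells was at 19.8, 22.6 and 24.6 in the glandular stomachs and at the floor in all duodenal samples, and lost its call in the fit over all perfused organs (adjusted p = 0.24). As the dimmest detected miRNAs of duodenum lay above those values, no fold is given for it, nor for miR-340-3p.

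The labelled tissues were checked against markers. Epithelial miRNAs were present in both organs. miR-200b gave 5708, 6879 and 9274 against 12488, 9567 and 7976, and miR-200a gave 4843, 5528 and 8032 against 5840, 4913 and 5414. The organs overlapped in both, and neither was called with the main scaling (adjusted p = 0.25 and 0.6). Of 7 tested members of the miR-200 family 2 were higher in duodenum with the main scaling, miR-141 (-1.21 ± 0.24) and 1 of 2 probe sets for miR-200c (-1.12 ± 0.24), and 0 under all 6 scalings, against 36.8% and 18.7% of all miRNAs tested. Both calls were lost without animal 4 (adjusted p = 0.051 and 0.055). The other miR-200c probe set was at -0.11. In the anterior stomach miR-200a and miR-200b had means of 166 and 303. The endocrine miRNA miR-375 gave 514, 544 and 294 against 565, 503 and 407, and was at the floor of 10.8 in the anterior stomach.

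Muscle miRNAs were low in glandular stomach. miR-143, the main miRNA of smooth muscle, gave 674, 1015 and 582 there, 618, 1584 and 2309 in duodenum and a mean of 25213 in anterior stomach, and was not called (adjusted p = 0.16). miR-145 was detected on 1 of 3 arrays in each organ, and miR-1, miR-133a and miR-206 stood at the floor on all 6. The markers of muscle were thus low in the organ that the study's table puts with the muscle organs. The markers of pancreatic acinar cells (0 of 4 probe sets detected on any of the 6 arrays) and of hepatocytes (0 of 2) were not well above background, and neither were miR-124 and miR-9 of neurons. Of the 11 members of the list for neurons and glia 2 were tested. miR-219-5p was held higher in duodenum, as given above, and miR-128 was not called. Over all miRNAs tested 18.7% were held higher in duodenum. Of the connective tissue and vessel markers, miR-199a-3p gave 193, 356 and 218 against 123, 436 and 518 and miR-126 gave 160, 263 and 144 against 114, 339 and 419. Both were lowest in the duodenum of animal 4, the sample with the highest miR-192, miR-194 and miR-215, and neither was called.

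**Figure D5:**
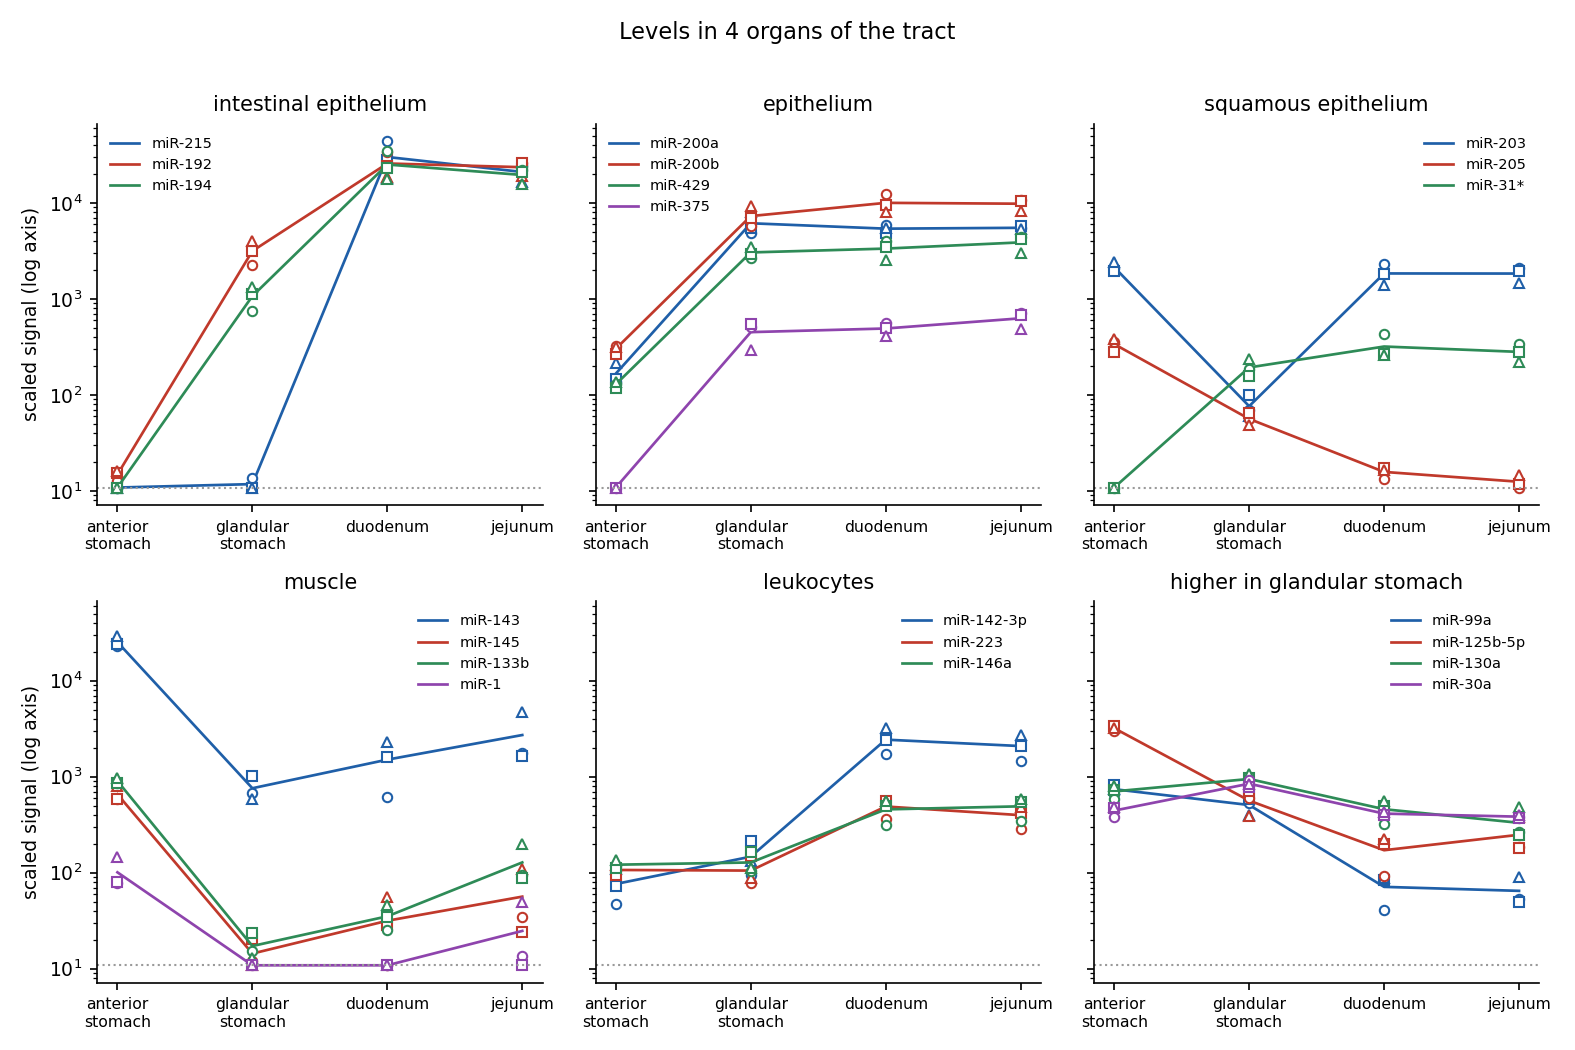
Scaled signal (log axis) in anterior stomach, glandular stomach, duodenum and jejunum, with 1 symbol per animal (circle 4, square 5, triangle 6), lines through the means and a dotted line at the floor. The jejunum lies close to the duodenum in the epithelial and leukocyte panels, miR-203 dips in glandular stomach, and the muscle miRNAs fall from the anterior to the glandular stomach.

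Along the tract the order of the levels differed between miRNAs. From anterior stomach over glandular stomach and duodenum to jejunum the means were 10.8, 11.8, 30074 and 20991 for miR-215, against 14.8, 3154, 25731 and 23538 for miR-192 and 10.8, 1069, 25104 and 19536 for miR-194. Among the 55 perfused organs the duodenum ranked first and the jejunum next for all 3, and the glandular stomach ranked 8 for miR-192 and miR-194. No rank is read for miR-215 there, which was at the floor on 2 of 3 arrays. miR-99a had means of 740, 506, 71.1 and 64.6 and miR-125b-5p of 3196, 563, 171 and 248, so that the glandular stomach stood between anterior stomach and duodenum. miR-130a and miR-30a were instead highest in glandular stomach, at 945 and 844 against 702 and 443 in anterior stomach. These levels are given as a description, since the organs come from the same 3 animals.

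In 12 of the 15 hairpins with both arms tested the arms differed in the same direction. The 4 hairpins with both arms held under all 6 scalings were miR-142, miR-192, miR-30a and miR-340, and their arms had the same direction. The arms of miR-652 differed by 1.53, with -1.58 for the star arm and -0.05 for the other.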

How the data were processed

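Total RNA with small RNA was labelled with Cy3 and hybridized to Agilent 1-colour rat miRNA arrays. The deposited scanner files (Feature Extraction 10.7.3, per the file headers) hold a background-subtracted intensity per spot, from which outlier spots were dropped and the mean per miRNA was taken, scaled by the 75th percentile over 37 miRNAs detected on all 180 arrays, set to a floor of 10.8 and converted to log2. The authors also deposited a normalized intensity per miRNA, which was the scanner's total signal times 1 factor per array (1.33 to 3.19) and served as an alternative. 0 columns of values could not be matched to a sample.

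The glandular stomach and duodenum of animals 4, 5 and 6 were compared with limma 3.58.1 (R 4.3.3) with animal as a block, Benjamini-Hochberg adjustment over the 155 miRNAs tested and a threshold of 0.05, and tables were handled with pandas 2.3.3 (Python 3.11.15). Pairing comes from the labels, which give the same animal number to both organs. The deviations of same-numbered arrays correlated at 0.34, 0.55 and -0.23. Those of arrays with different numbers lay between -0.56 and 0.30, so the pairs are not clearly set apart. The p-values rest on how much the difference between the organs varies over these 3 animals. limma draws this spread toward a value shared by the 155 miRNAs. An exact sign-flip test of 3 pairs could not go below 0.25. On simulated data for this comparison (155 miRNAs) 68.1% of differences of 1 log2 and 93.8% of those of 2 log2 were recovered. The miRNAs named were the markers and all tested members of the intestinal epithelium, miR-200, muscle and endocrine lists. Of each other list up to 4 were named by size of difference. Added were up to 12 of the largest called differences in each direction among miRNAs detected on all 6 arrays. Up to 6 of the brightest called in 1 organ and undetected in the other were also named. So were the 5 brightest of each organ and 5 with the smallest difference. The rest were named after their values were seen, as calls held under all 6 scalings, relatives by cluster, seed or hairpin, or undetected markers. "At least" folds set the mean of the bright organ against, on each array of the other organ, the dimmest detected signal or the miRNA's own signal, whichever was higher. Where the own signal was higher on every array the result is the fitted fold, and no bound is given. The comparison, the lists and this rule were chosen with earlier results of these data known.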

Additional observations from a re-analysis of the deposited data

How the results depend on the processing

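The scaling, the background correction and the filter moved the counts. Higher in glandular stomach were 54 miRNAs with the 75th percentile over miRNAs detected on all 6 arrays, 60 with that over all miRNAs, 45 with the median, 60 with quantile normalization and 33 with the deposited table, against 18. Higher in duodenum were 36 with the percentile over all miRNAs, 34 with the median and 32 with quantile normalization, against 57. After normexp the counts were 0 and 19 (19 in either direction, against 75), and 0 and 8 (8 in either direction, 30 at an unadjusted p under 0.05) with the offset added after scaling. By construction the offset of 50 is multiplied by the scaling factor of each array, which was taken anew from the normexp values. With the main scaling the factors were 3.04 to 3.92 in duodenum and 1.25 to 1.87 in glandular stomach. Testing only miRNAs detected on all 6 arrays left 7 higher in glandular stomach, of 121. Testing all 717 left 0 and 1 (1 in either direction, 98 at an unadjusted p under 0.05), with limma in each case. Leaving out each animal gave 14 to 20 and 41 to 59 (56 to 79 in either direction), and all 29 miRNAs higher in duodenum kept their call each time. With a floor 4 times as high the adjusted p-values of let-7e, miR-125b-5p, miR-152, miR-205 and miR-219-5p were 0.087, 0.071, 0.078, 0.086 and 0.058, and those of miR-340-5p, miR-99b and miR-451, several of whose values then lie at the floor, were 0.35, 0.44 and 1. Without the block that pairs organs by animal the counts were 20 and 58.

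Listed here, among the miRNAs that the naming rule gave, are called differences that no longer had their sign and uncalled ones that were called with the opposite sign. With quantile normalization they were miR-200b 1.60, the further miR-200c probe set 0.00, miR-375 0.516, miR-7a 0.471, miR-21 0.280, let-7f 1.42, let-7d 0.404, miR-29b 0.430 and miR-148b-3p 0.600. With the percentile over all miRNAs they were miR-200c 0.511, miR-7a 0.449, let-7f 0.572, let-7d 0.577, miR-29b 0.483 and miR-148b-3p 0.600, and with that over all 6 arrays let-7f 0.497, let-7d 0.501, miR-29b 0.408 and miR-148b-3p 0.524. With normexp they were let-7e -0.178, miR-185 -0.351, miR-30a* -0.986, miR-152 -0.774, miR-221 -0.690, miR-205 -1.06 and -0.886 (further probe set), miR-326 -0.944, miR-340-5p -1.08, miR-451 -1.29, miR-99b -1.14 and miR-125a-5p -0.799. With the offset after scaling they were miR-185 -0.019, miR-30a* -0.605, miR-152 -0.412, miR-221 -0.150, miR-205 -0.613 and -0.455, miR-326 -0.528, miR-340-5p -0.612, miR-451 -0.872, miR-99b -0.711 and miR-125a-5p -0.431. The cause was not tested. The number of arrays, 3 an organ, limits the precision, as does the dim signal of duodenum. The setups with normexp by another signal column, with the offset after scaling and the requirement of 6 scalings were chosen after seeing the data.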

Other observations

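Several further groups had few or no calls with the main scaling, which called 48.4% of all miRNAs tested. The clusters of miR-23, miR-27 and miR-24 had differences of 0.46 for miR-23b, 0.40 for miR-23a, 0.16 for miR-27a and 0.15 for miR-27b (log2, glandular stomach minus duodenum), of which none was called with the main scaling, beside the 0.56 of miR-24. The 4 tested members of the miR-29 family had a median of -0.04, against -0.26 over all miRNAs tested, and 0 were called. miR-183 and miR-96, a pair known from sensory and epithelial cells, were at 0.43 and 0.06.

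The imprinted Dlk1-Dio3 cluster is known from embryo, brain and endocrine organs. Here 59 of its 62 probe sets were detected on none of the 6 arrays. Of all 717 miRNAs on the array 190 were detected on at least 1 of the 6. Of the 3 tested, miR-409-3p was higher in duodenum (-1.18) and was called under 5 of 6 scalings. Both probe sets for miR-494 were at 0.44 and 0.28 and were not called with the main scaling. Their means were 407 and 775 in glandular stomach and 346 and 777 in duodenum. In the X-linked cluster of miR-532 the differences were -0.93 for miR-532-5p and -0.90 for the star arm of miR-362, both called with the main scaling, and -0.35 for miR-500 and 1.04 for miR-188, which were not called. None of these was called under all 6 scalings, against 30.3% of all miRNAs tested.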
